A study of Mus musculus with 40 samples.

Results

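Hemoglobin and erythroid transcripts were followed in extensor digitorum longus (EDL) muscle of the mouse. The 6 genes, taken by name from a table of 22844 genes, were the alpha globins Hba-a1 and Hba-a2, the beta globins Hbb-bs and Hbb-bt, the heme synthesis enzyme Alas2 and the red cell membrane transporter Slc4a1. There were 40 libraries, 1 per mouse, in 8 groups of 5. All mice were of the strain labelled Tsc1tm1Djk/J. Control littermates (CON) carried floxed Tsc1 alleles (Tsc1fl/fl) without Cre recombinase, and TSCmKO mice had lost Tsc1 in muscle fibers. Tsc1 holds back mTORC1, a kinase complex that drives growth. Blood cells and other cells between the fibers are not the target of this deletion, and the promoter that drives Cre is not given in the sources used here. At 3 or 9 months of age (3m, 9m) they were injected with vehicle or with rapamycin (+RM), which blocks mTORC1, on the 3 days before dissection. The labels give 4 mg per kg for rapamycin and the study text a higher dose, so that the dose is uncertain. RNA came from lysates of the whole muscle with the cells in its vessels, and whether blood was flushed out is not given in the sources used here.

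Hemoglobin is a tetramer of a pair of alpha and a pair of beta chains, each holding a heme group that binds oxygen. Alas2 makes the first committed step of heme synthesis in erythroid cells, whereas Alas1 does so in other tissues. Slc4a1 encodes band 3, the anion exchanger that anchors the membrane skeleton of red cells. Mature red cells of mammals have no nucleus, and reticulocytes, the youngest cells in the circulation, still hold globin mRNA. Muscle fibers store oxygen with another globin, myoglobin (Mb). In RNA from whole muscle, fewer cells of a type and less RNA per cell cannot be told apart.

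The globins come as pairs of near-identical copies, which bears on every value given for a single copy. In GENCODE M21 on GRCm38, Hba-a1 (ENSMUSG00000069919) lies at chr11:32283511-32284465 and Hba-a2 (ENSMUSG00000069917) at chr11:32296489-32297298, both on the plus strand. Hbb-bs (ENSMUSG00000052305) lies at chr7:103826534-103828096 and Hbb-bt (ENSMUSG00000073940) at chr7:103812524-103813996, both on the minus strand. All 4 globin genes have 3 exons. The coding sequences of the alpha copies, of 426 bases, differed at 1 base (99.77% identity), and those of the beta copies, of 441 bases, also differed at 1. These differences are shown in 51-base stretches of the coding sequence, with the differing base in capitals, bases 356 to 406 of the alpha copies and 391 to 441 of the beta copies.
Hba-a1: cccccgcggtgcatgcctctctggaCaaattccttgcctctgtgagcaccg
Hba-a2: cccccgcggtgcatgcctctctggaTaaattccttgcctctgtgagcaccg
Hbb-bs: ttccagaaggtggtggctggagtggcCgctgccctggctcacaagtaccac
Hbb-bt: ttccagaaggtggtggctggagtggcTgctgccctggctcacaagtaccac
Reads were 50 nt long. Of the distinct 50-base windows in the transcripts of Hba-a1, 72.3% also occurred in Hba-a2, and 89.3% of those of Hba-a2 occurred in Hba-a1. The corresponding shares were 53.2% for Hbb-bs and 58.3% for Hbb-bt. No window of Alas2 (ENSMUSG00000025270, chrX:150547375-150570638, plus strand, 11 exons) or Slc4a1 (ENSMUSG00000006574, chr11:102348824-102366203, minus strand, 20 exons) occurred in another member. The split between the copies of a pair therefore rests on the reads outside the shared stretches, and the sum of a pair is the firmer value.

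The promoters of the members are shown as the 250 bases before the RefSeq start on GRCm38.p6. Their part in the joint variation of the members across libraries (given further on) was not tested. The GENCODE gene bounds above span longer gene models and begin upstream of some of these starts. RefSeq entries matched 5 of the 6 members. Capitals mark 4 short motifs on either strand, GATAA and CACCC as well as CCAAT and TATAA, and neighbouring matches may touch or overlap. The window of Hba-a1 was identical to that of Hba-a2 over the 297 bases compared, which include bases after the start, with a shift of 3 bases, so that only that of Hba-a2 is printed.
Hba-a2, chr11:32296242-32296491, plus strand: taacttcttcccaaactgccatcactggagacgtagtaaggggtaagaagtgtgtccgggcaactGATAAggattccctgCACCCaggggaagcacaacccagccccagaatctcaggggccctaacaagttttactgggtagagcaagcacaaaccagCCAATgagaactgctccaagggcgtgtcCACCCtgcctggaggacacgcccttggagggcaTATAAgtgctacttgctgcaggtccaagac
Hbb-bs, chr7:103827929-103828178, minus strand: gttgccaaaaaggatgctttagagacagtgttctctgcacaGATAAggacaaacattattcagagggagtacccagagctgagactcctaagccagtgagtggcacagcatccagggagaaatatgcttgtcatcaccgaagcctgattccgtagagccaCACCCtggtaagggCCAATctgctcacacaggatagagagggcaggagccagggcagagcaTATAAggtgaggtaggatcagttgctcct
Hbb-bt, chr7:103813924-103814173, minus strand: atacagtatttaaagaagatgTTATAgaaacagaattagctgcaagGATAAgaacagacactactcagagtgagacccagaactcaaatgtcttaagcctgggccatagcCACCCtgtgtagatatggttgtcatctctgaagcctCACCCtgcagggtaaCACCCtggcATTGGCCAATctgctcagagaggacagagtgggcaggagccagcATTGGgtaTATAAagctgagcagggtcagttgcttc
Alas2, chrX:150547167-150547416, plus strand: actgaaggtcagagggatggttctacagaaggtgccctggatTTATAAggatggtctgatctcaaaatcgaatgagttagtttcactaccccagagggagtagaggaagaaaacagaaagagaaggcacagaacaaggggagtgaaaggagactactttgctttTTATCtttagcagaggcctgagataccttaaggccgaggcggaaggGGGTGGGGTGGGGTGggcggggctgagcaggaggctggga
Each of the 5 windows held GATAA (the letters that GATA factors read) and CACCC (those of Klf1 and related factors). CCAAT occurred in the 4 globin windows and not in that of Alas2. The last TATAA began 30 bases before the start in Hba-a2, 29 in Hbb-bs and 28 in Hbb-bt, and in Alas2 the only matches lay 208 and 207 bases before it. Among 32851 mouse promoters of the same length, 22.6% held GATAA, 52% CACCC, 33.8% CCAAT and 22.8% TATAA on either strand. Such matches describe letters and not binding.

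Levels are given as TPM, which is scaled by transcript length and library total. CPM, a read count scaled to library size by the TMM method, is used where several lists are compared or counts were low. Total counts ran from 8883870 to 35224669 per library. The genotype labels held in every library, with Tsc1 at 51.3 to 133.7 CPM in the 20 CON libraries and 17.8 to 35.8 CPM in the 20 TSCmKO libraries. The fast myosin gene Myh4, which marks the fibers of this muscle, ranged from 15901 to 74048 CPM. Genes entered the test with at least 1 CPM in 5 or more libraries, which left 13543. All 6 members passed. The globins and Alas2 reached 1 CPM in 40 of 40 libraries, with 598 to 49916 counts for Hba-a1 and 45 to 3007 for Alas2. Slc4a1 reached it in only 6, its median count was 7.5, and it had 0 counts in 3mCON replicate 5 and 3mCON+RM replicate 3. A count of 0 allows up to 0.253 and 0.337 CPM there (3 counts, counting error only). Fold changes of Slc4a1 against such groups are therefore imprecise. The same 13543 genes were tested where libraries were left out, so that Slc4a1 stayed in those fits whether or not it met the filter there.

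In hemoglobin transcripts 3 libraries stood apart from the rest, each from a different group. The 4 globins together took 0.933% of all counts in 3mTSCmKO replicate 3, 0.752% in 9mCON replicate 1 and 0.239% in 9mCON+RM replicate 1. In the other 37 libraries their share ran from 0.0207% (3mCON replicate 5) to 0.156% (3mTSCmKO+RM replicate 2), with a median of 0.0491%. The level of Hba-a1 in 3mTSCmKO replicate 3 was 15-fold the median of the other 4 libraries of its group. That of Alas2 was 11.2-fold and that of Slc4a1 8.81-fold. In 9mCON replicate 1 the excess was 10.4-fold for Hba-a1, 7.39-fold for Alas2 and 15.7-fold for Slc4a1, and in 9mCON+RM replicate 1 it was 6.95-fold, 7.31-fold and 4.23-fold. These libraries were not among the shallowest, with 18522391, 15680768 and 17170489 counts. They are called the 3 high libraries, and the comparisons that hold them are given with and without them, a choice made after the values were seen.

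The alpha globins were measured as follows. Hba-a1 was at 1138, 630.2, 336.2, 496.1 and 155.8 TPM in the 5 3mCON libraries and at 431.2, 830.4, 7786, 609.5 and 395.8 TPM in 3mTSCmKO. In 9mCON it was at 5278, 740.9, 716.5, 254.9 and 295.6 TPM, and in 9mTSCmKO at 184.1, 402.6, 846.3, 276.3 and 278.5 TPM. Each TSCmKO group overlapped with the CON group of its age, with or without the single high value in 3mTSCmKO and in 9mCON. Under rapamycin Hba-a1 was at 550.4, 394.4, 283.5, 413.0 and 602.6 TPM in 3mCON+RM and at 517.3, 1426, 316.6, 512.2 and 346.5 TPM in 3mTSCmKO+RM. It was at 1662, 156.0, 435.2, 298.9 and 179.3 TPM in 9mCON+RM and at 484.4, 279.1, 290.6, 328.9 and 356.8 TPM in 9mTSCmKO+RM. The last group had the smallest spread of the 8, with a coefficient of variation of 23.7% against 160.8% in 3mTSCmKO. Hba-a2, the other alpha copy, was higher than Hba-a1 in each of the 40 libraries and varied with it, with group medians from 397.1 TPM (9mCON+RM) to 987.6 TPM (9mCON).

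The beta globins had the same 3 libraries at the top. Hbb-bs was at 944.3, 631.2, 313.6, 421.0 and 153.5 TPM in 3mCON and at 519.3, 679.9, 7599, 698.3 and 337.3 TPM in 3mTSCmKO. It was at 5175, 809.4, 750.7, 291.4 and 381.2 TPM in 9mCON and at 208.2, 454.9, 785.7, 315.1 and 292.3 TPM in 9mTSCmKO. Of the 9mTSCmKO libraries, 4 lay within the range of the 4 lower 9mCON libraries. Under rapamycin the range of Hbb-bs was 305.5 to 721.2 TPM in 3mCON+RM, 340.2 to 1238 TPM in 3mTSCmKO+RM, 181.5 to 1678 TPM in 9mCON+RM and 279.6 to 474.7 TPM in 9mTSCmKO+RM. Hbb-bt, the other copy, had group medians from 209.6 TPM (9mTSCmKO) to 531.6 TPM (9mCON).

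Alas2, the erythroid enzyme of heme synthesis, was lower in level than the globins and varied with them. Its values were 22.4, 18.2, 5.54, 9.46 and 4.07 TPM in 3mCON and 14.0, 15.1, 162.5, 16.9 and 5.90 TPM in 3mTSCmKO. They were 99.7, 17.3, 16.8, 5.6 and 10.1 TPM in 9mCON and 6.35, 10.7, 19.2, 5.57 and 5.56 TPM in 9mTSCmKO. Per 1000 TPM of globin there were 5.72 TPM of Alas2 in the median library, with a range of 4.28 to 7.84 over all 40. The level of Alas2 itself spanned 42.1-fold, highest over lowest. Slc4a1, the membrane transporter, was at 0.507, 0.229, 0.0351, 0.207 and 0 TPM in 3mCON and at 0.201, 0.394, 3.93, 4.76 and 0.499 TPM in 3mTSCmKO. It was at 2.94, 0.195, 0.335, 0.107 and 0.179 TPM in 9mCON and at 0.360, 0.233, 0.168, 0.0497 and 0.302 TPM in 9mTSCmKO. Slc4a1 thus had a second high library in 3mTSCmKO, replicate 4, in which Hba-a1 was at 0.966-fold and Alas2 at 1.16-fold the median of the other 4 libraries.

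**Figure D1:**
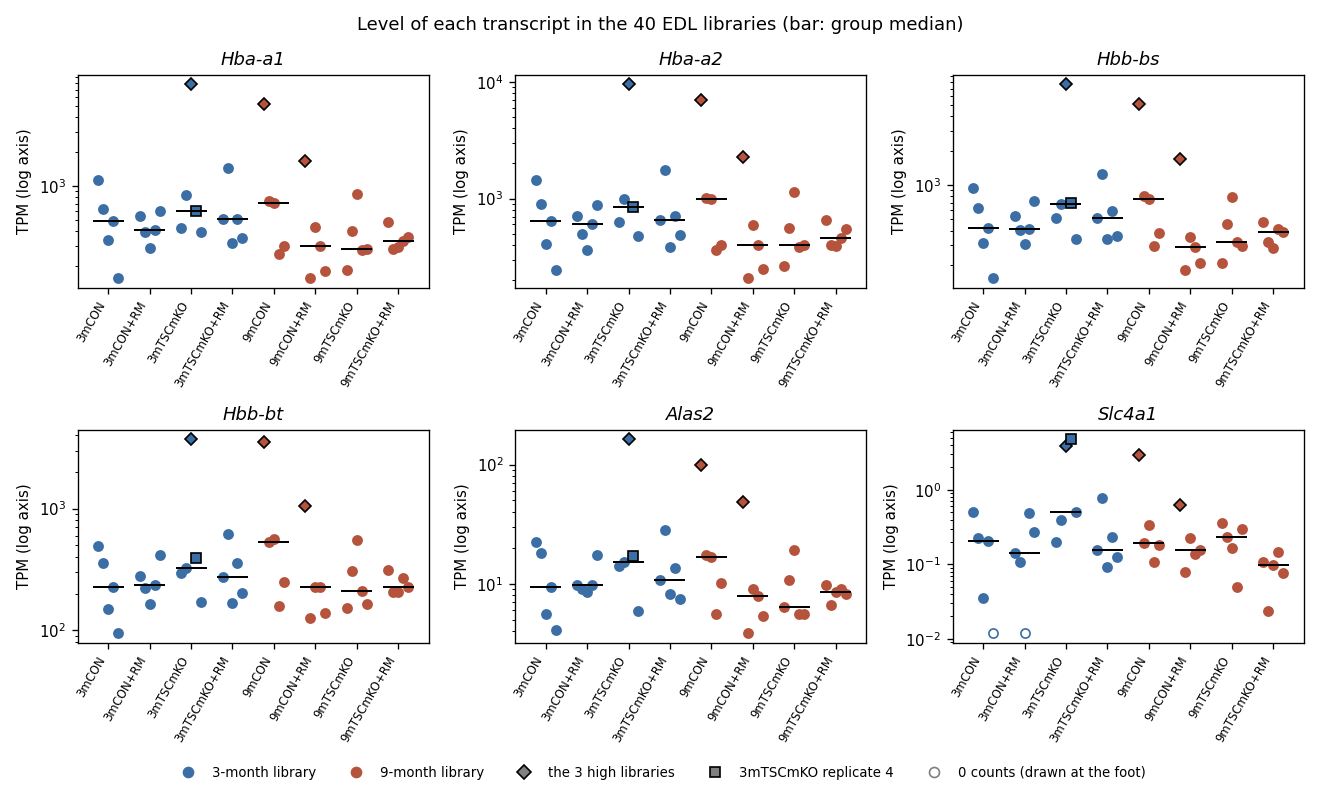
TPM of the 6 members in each of the 40 libraries (log axes), 5 per group, with the group median as a bar, the 3 high libraries as diamonds and 3mTSCmKO replicate 4 as a square. Hba-a1 runs from 155.8 to 1426 TPM in 37 libraries and reaches 7786, 5278 and 1662 TPM in the 3 high libraries, and Slc4a1 is also high in the square.

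By group median, 9mCON was highest for the 4 globins and Alas2, followed by 3mTSCmKO and 3mTSCmKO+RM. The highest group median was 2.57-fold the lowest for Hba-a1, 2.49-fold for Hba-a2, 2.63-fold for Hbb-bs, 2.54-fold for Hbb-bt and 2.65-fold for Alas2. Of the 28 pairs of groups, 0 were without overlap for each of these 5 genes, so that neighbours in this order overlapped. A single high library widens the range in each of 3mTSCmKO, 9mCON and 9mCON+RM. Pairs without overlap were not counted over all genes. For Slc4a1, 3mTSCmKO had the highest median (0.499 TPM) and 9mTSCmKO+RM the lowest (0.0984 TPM). This was its only pair without overlap.

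The first question of the design was how the loss of Tsc1 in fibers relates to expression at each age. DESeq2 called 0 members wherever edgeR did, except for 4 in the genotype effect at 9 months and 1 in the average rapamycin effect. In these it called 5278 and 5492 genes in all. At 9 months, 0 of the 6 members passed the adjusted threshold of 0.05, against 37.9% of all genes tested. The log2 fold changes, TSCmKO over CON, were −1.91 ± 0.83 (SE) for Hba-a1, −1.90 ± 0.80 for Hbb-bs, −1.75 ± 0.80 for Alas2 and −2.11 ± 0.88 for Slc4a1. Adjusted p-values of all 6 (edgeR quasi-likelihood test) were 0.0556 to 0.0844, with 6 of 6 unadjusted p-values under 0.05. The fold changes without the 3 high libraries were −0.54 to −0.20 (adjusted p = 0.361 to 0.873, edgeR). At 3 months the sign was opposite. Slc4a1 alone passed, with 3.13 ± 0.88 (adjusted p = 0.00899, edgeR), where 19.8% of all genes did, and the other 5 members were at 1.78 to 1.99. DESeq2 called 3 members and 2893 genes in all here, and with only the groups compared 0 members passed. With the high libraries left out those 5 were at 0.05 to 0.19, whereas Slc4a1 was at 2.78 ± 0.72 (adjusted p = 0.00538, edgeR). Leaving out 3mTSCmKO replicate 4 as well brought Slc4a1 to 0.49 ± 0.68 (adjusted p = 0.686, edgeR). Under rapamycin, 0 members passed at 9 months and 0 at 3 months, against 20.6% and 10% of all genes, with 0 unadjusted p-values under 0.05 at either age. Their fold changes were −1.65 to −0.76 at 9 months and 0.09 to 0.45 at 3 months. Leaving out 9mCON+RM replicate 1 with the other high libraries turned the 9-month sign of the 4 globins and Alas2. These were then at 0.33 to 0.49 (Hbb-bs at 0.49 ± 0.46). Slc4a1 was at −0.77 ± 1.02, and 0 members passed the threshold.

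The second question was what 3 days of rapamycin change. Members passed in 0 of 6 cases in 9mCON, 9mTSCmKO and 3mCON, where 11.8%, 32.6% and 0.679% of all genes did. In 9mCON, the fold changes were −1.45 to −0.75 (adjusted p = 0.310 to 0.611, edgeR) with 0 unadjusted p-values under 0.05. Each side holds 1 of the high libraries here. Without 9mCON+RM replicate 1 alone, 2 members passed, Hbb-bs at −2.51 and Hbb-bt at −2.47 (adjusted p = 0.0449 and 0.0476, edgeR), and without 9mCON replicate 1 alone all 6 were above 0, at 0.06 to 0.46. When both were left out, Hbb-bs was at −1.17 ± 0.48 (unadjusted p = 0.0214, adjusted p = 0.150, edgeR) and the members ranged from −1.17 to −0.42. In 9mTSCmKO and 3mCON neither side holds a high library, and the fold changes were −0.99 to −0.09 and −0.28 to 0.54, with 0 unadjusted p-values under 0.05. In 3mTSCmKO, Slc4a1 passed with −2.50 ± 0.81 (adjusted p = 0.0213, edgeR), beside 23.6% of all genes, a call that was lost with only the groups compared. The other 5 were at −1.71 to −1.63 there, and at 0.07 to 0.11 without the high libraries. Slc4a1 was then at −2.14 ± 0.67 (adjusted p = 0.0183, edgeR), and at 0.17 ± 0.64 without 3mTSCmKO replicate 4 as well.

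The third question was age, which cannot be told apart from library preparation, since the 3-month libraries had mean insert sizes of 175 to 239 nt and the 9-month ones of 223 to 308 nt. In CON, 0 members passed (1.02% of all genes) and the fold changes, 9 over 3 months, were 1.39 to 2.33, with 3 unadjusted p-values under 0.05. In TSCmKO, 5 of 6 fell (37.4% of all genes passed in either direction, and all 6 members had unadjusted p-values under 0.05), by 2.28 ± 0.84 on the log2 scale for Hba-a1, by 2.14 ± 0.83 for Hba-a2, by 2.11 ± 0.80 for Hbb-bs, by 2.23 ± 0.81 for Alas2 and by 2.91 ± 0.85 for Slc4a1. Hbb-bt was at −1.81 ± 0.79 (adjusted p = 0.0686, edgeR). With insert size as a term 1 member passed, with only the groups compared 1, with no filter on low counts 3 and with DESeq2 6 (5250 genes in all). Leaving out the 3 high libraries left Slc4a1 as the only member that passed in TSCmKO, at −2.55 ± 0.70 (adjusted p = 0.00556, edgeR), and without 3mTSCmKO replicate 4 as well it was at −0.24 ± 0.67. In CON without these libraries the members were at 0.02 to 0.62. In CON+RM and TSCmKO+RM, 0 members passed (14.6% and 22.8% of all genes), with 0 unadjusted p-values under 0.05. In CON+RM the fold changes were 0.34 to 0.70 with all libraries and −0.72 to −0.50 without the high ones, opposite in sign.

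**Figure D2:**
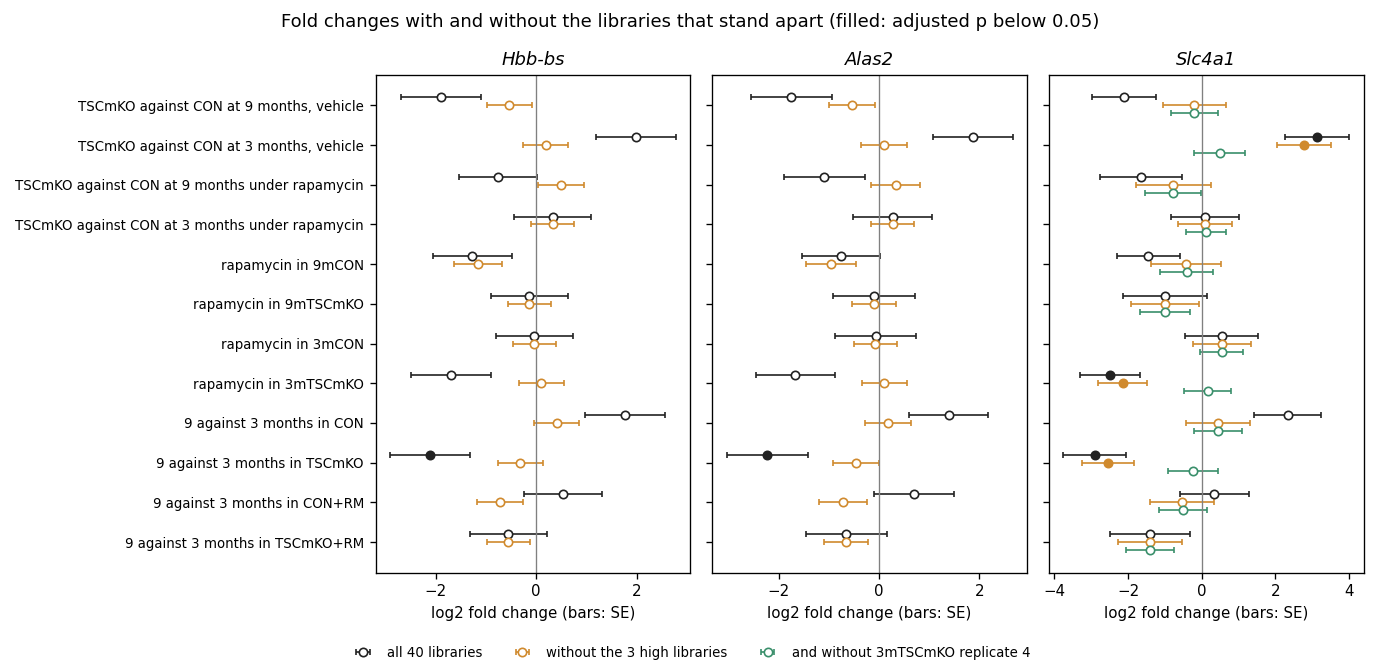
Log2 fold changes with SE of Hbb-bs, Alas2 and Slc4a1 in the 12 comparisons between pairs of groups, with all 40 libraries, without the 3 high libraries and, for Slc4a1, also without 3mTSCmKO replicate 4 (filled points passed the adjusted threshold). For Hbb-bs the difference between genotypes moves from −1.90 to −0.54 at 9 months and from 1.99 to 0.19 at 3 months when the 3 libraries are left out.

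The genotype difference at 9 months minus that at 3 months, tested as an interaction in vehicle-treated mice, passed for 3 members and 4.94% of all genes. It was −3.89 ± 1.13 for Hbb-bs (adjusted p = 0.0391), −3.80 ± 1.12 for Hbb-bt (0.0412) and −5.24 ± 1.24 for Slc4a1 (0.00986), in the edgeR test. The other 3 members had adjusted p-values of 0.0564 to 0.0614. With insert size as a term 1 member passed, with no filter on low counts 1, with only the groups compared 0 and with DESeq2 6 (867 genes in all). With the 3 high libraries left out, 0 members and 870 of 13543 genes passed. The interaction was then −0.73 ± 0.63 for Hbb-bs and −2.98 ± 1.14 for Slc4a1 (adjusted p = 0.110, edgeR, lowest of the 6). Leaving out 9mCON replicate 1 alone also gave 0 members, and leaving out 3mTSCmKO replicate 3 alone gave 1. Members passed in 0 of 6 cases in the interactions of rapamycin with genotype at 9 months (4.87% of all genes) and at 3 months (3.45%), and of rapamycin with age in CON (0.938%) and in TSCmKO (1.91%). Among these, 1 unadjusted p-value was under 0.05, that of Slc4a1 in the interaction with genotype at 3 months. Without the 3 high libraries 0 members passed in these 4 either. Signs turned in 2 of them for Alas2 and the 4 globins, from −1.66 for Hbb-bs to 0.13 in that with genotype at 3 months and from 1.53 for Hba-a1 to −0.27 in that with age in TSCmKO, and at 9 months for Slc4a1, from 0.45 to −0.57. Averages over 4 strata gave 0 members for genotype (47.1% of all genes), 0 for rapamycin (39.3%) and 0 for age (50.9%), with 0 unadjusted p-values under 0.05 for genotype and age. The average genotype effect was −0.17 to −0.09 with all libraries and 0.04 to 0.47 without the high ones, where 0 passed as well. The average rapamycin effect was −1.10 to −0.65, with 3 unadjusted p-values under 0.05 and a lowest adjusted p of 0.0684 (edgeR). Without the single library 9mCON+RM replicate 1, all 6 members passed in that average. Without all 3 high libraries 0 members did, at −0.75 to −0.26, against 5097 of 13543 genes. In the average over ages without those 3, Slc4a1 passed at −1.01 ± 0.42 (adjusted p = 0.0461, edgeR), and it was at −0.43 ± 0.33 without 3mTSCmKO replicate 4 as well.

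Summing the copies of a pair gave values close to those of the single copies. The sum of the beta copies differed by −1.90 ± 0.79 between genotypes at 9 months (adjusted p = 0.0574, edgeR), and that of the alpha copies by −1.88 ± 0.82 (0.0705). Both sums passed for age in TSCmKO, with −2.20 ± 0.83 for alpha (adjusted p = 0.0367, edgeR) and −1.98 ± 0.80 for beta (0.0481), although Hbb-bt alone had not. In the interaction of genotype and age the beta sum passed (−3.85 ± 1.12, 0.0395) and the alpha sum did not (−3.70 ± 1.16, 0.0584).

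Across the 40 libraries the members varied together within groups. Taking each library as its deviation from its group mean on the log2 CPM scale, the 6 pairs among the 4 globins had r = 0.984 to 0.997. Alas2 followed the globins with r = 0.968 to 0.985 (Spearman's rho 0.936 to 0.966). Slc4a1 followed them with r = 0.714 to 0.737 (rho 0.732 to 0.773). In permutation tests (two-sided, 15 pairs) p was 1e-05 for the pairs without Slc4a1, the smallest the permutations can give (adjusted p = 1.36e-05), and with Slc4a1 p was at most 4e-05 for r and 6e-05 for rho, before and after adjustment. With the 2 libraries farthest from the median left out, r of Alas2 with the globins was 0.949 to 0.978 and that of Slc4a1 0.647 to 0.681. When the 3 high libraries were left out, r was 0.917 to 0.964 for Alas2 and 0.602 to 0.653 for Slc4a1. Within 3 months r of Slc4a1 with the globins was 0.694 to 0.723 and within 9 months 0.782 to 0.802. The members of a globin pair share reads, so that part of their agreement is built in, while Alas2 shares none with them.

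Other genes with this pattern were ranked by their correlation with the mean deviation of the 4 globins, over 40 libraries. The median over 13543 genes was r = 0.0209, and 64 genes outside the members had r of at least 0.5. Alas2 was at 0.980, above every such gene. Slc4a1 was at 0.727, with 6 of them above it. Of the 10 highest, 9 are given here. Ube2l6, a conjugating enzyme of the ubiquitin-like protein ISG15, had r = 0.900. It was at 30.5, 26.2 and 7.50 CPM in the 3 high libraries, in the order 3mTSCmKO replicate 3, 9mCON replicate 1 and 9mCON+RM replicate 1, and at 2.60 to 8.60 CPM in the other 37. Isg20, an exonuclease, had r = 0.883 and 7.50, 10.98 and 4.32 CPM against 0.572 to 3.28. All 3 high libraries thus exceeded the other 37 in Isg20, and 2 of the 3 did in Ube2l6. The next were Fam46c (r = 0.816), Cdr2 (0.766), the ubiquitin ligase gene Mkrn1 (0.746), the poly(A) binding protein gene Pabpc1 (0.715), the B cell factor gene Pax5 (0.687), Pyroxd2 (0.672) and Neurl3 (0.654). Over the other 37 libraries r was 0.738 for Ube2l6 and 0.697 for Isg20, and lowest of the 9 for Pabpc1 at 0.328. Pax5 was at 6.73 and 2.66 CPM in the first 2 of the high libraries and at 0.405 CPM in the last, against 0.0516 to 1.41 CPM in the rest.

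**Figure D3:**
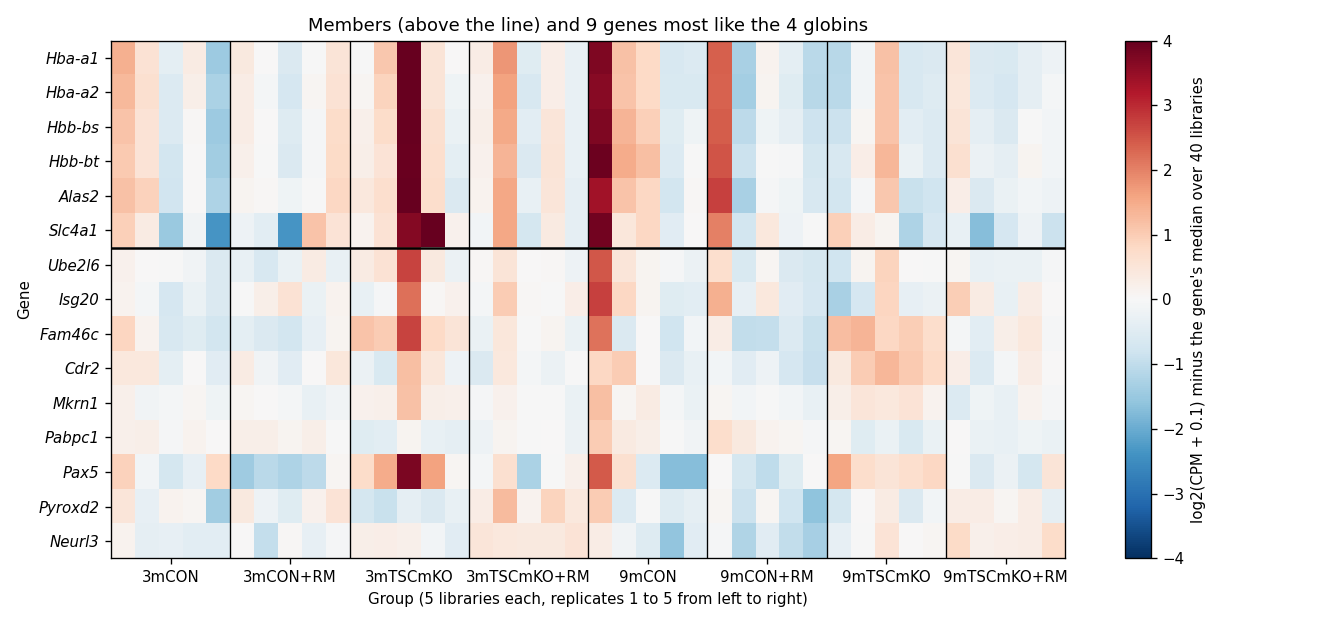
Each library's log2(CPM + 0.1) minus the gene's median over the 40 libraries, for the members and 9 of the 10 genes outside them with the highest correlation to the globins, in groups of 5 libraries. The members and Isg20 share the same 3 red columns, and 3mTSCmKO replicate 4 is dark red in Slc4a1 while Isg20 there is at 1.60 CPM, within the range of the other libraries.

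The library with Slc4a1 but ordinary globins differed from the high libraries in its other erythroid genes. In 3mTSCmKO replicate 4, Slc4a1 had 260 counts. Gata1, the master regulator of the erythroid lineage, had 14 of its 24 counts over all libraries there, and Kel, a blood group antigen gene, 38 of its 48. Values in that library were 0.448 CPM for Gata1, 1.22 for Kel, 0.768 for Rhag (a membrane protein of the Rh complex) and 0.576 for the erythropoietin receptor gene Epor. In the 36 libraries other than this and the 3 high ones, they reached at most 0.0910, 0.145, 0.362 and 0.310 CPM. In the 3 high libraries Gata1 was at 0.103, 0 and 0 CPM and Kel at 0.0514, 0 and 0 CPM. Epb42, of the membrane skeleton, was at 1.41 CPM in 3mTSCmKO replicate 4 and at most 0.808 CPM elsewhere. Gata1, Kel, Rhag, Epor and Epb42 were thus higher in that library than in the other 39, and Isg20 higher in the 3 high libraries than in the other 37. Klf1, another erythroid regulator, was at 0.736 CPM in 3mTSCmKO replicate 4, within the range of the 36 (at most 1.02 CPM), and so were Tal1 (2.37), Zfpm1 (4.80), Bcl11a (0.704) and the blood group gene Rhd (0.448). Of 9 erythroid regulators and chaperones, 5 were highest in that library, and their sum there, 10.6 CPM, was within the range of the rest (at most 10.8). Of 15 red cell membrane and skeleton genes, 6 were highest there and 9 were within range, and their sum, 1424 CPM, was the lowest of the group. Of 14 red cell enzyme and reticulocyte genes 0 were highest there, and of 12 heme synthesis genes 0. These genes were singled out after their values were seen.

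**Figure D4:**
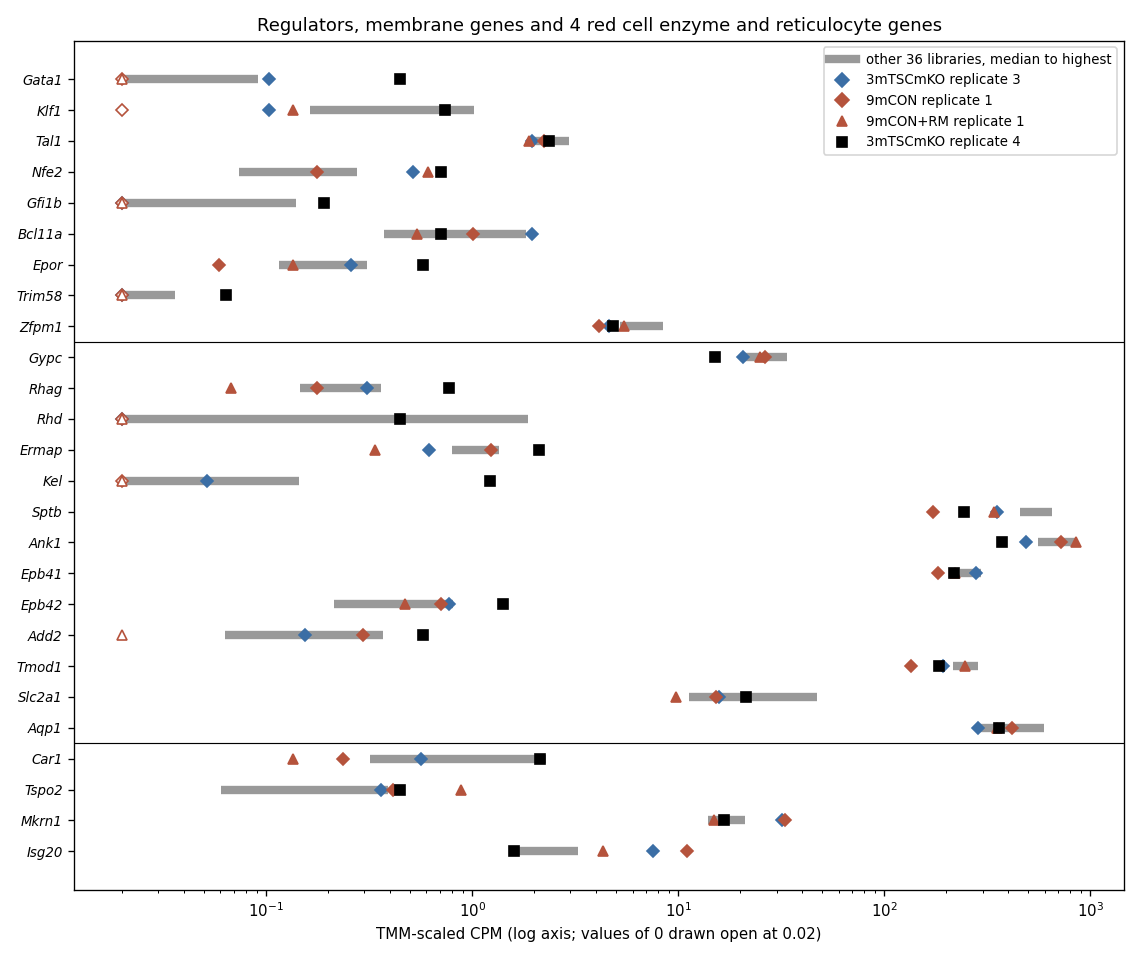
TMM-scaled CPM (log axis, values of 0 drawn open at 0.02) of erythroid regulators, red cell membrane genes and 4 enzyme and reticulocyte genes in the 3 high libraries and in 3mTSCmKO replicate 4, with a grey bar from the median to the highest of the other 36 libraries. The black squares exceed the grey bars for Gata1, Kel, Rhag and Epor (0.448, 1.22, 0.768 and 0.576 CPM), and the colored marks exceed them for Isg20.

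Markers of other blood cells were high in some of these libraries, and their part in these results was not tested. The summed level of 13 neutrophil markers was 76.9 CPM in 3mTSCmKO replicate 4 and 19.8, 14.6 and 8.85 CPM in the 3 high libraries, with a median of 7.97 CPM in the 37 libraries other than those 3. The granule genes Ngp (404 of 488 counts over all libraries), Camp (112 of 127) and Ltf (230 of 288) were concentrated in 3mTSCmKO replicate 4, as were Elane (24 of 29) and Mpo (89 of 190), which granulocyte precursors make. Ltf was at 0 in 9mCON replicate 1, Camp and Mpo in 9mCON+RM replicate 1 and Elane in both. The 11 lymphocyte markers in the table summed to 28.6, 10.98 and 4.59 CPM in the 3 high libraries against 1.45 to 7.91 CPM in the rest. The B cell genes Ms4a1 and Cd79a were at 8.22 and 5.45 CPM in 3mTSCmKO replicate 3. The 10 platelet markers summed to 16.9, 10.3 and 3.11 CPM against 2.63 to 13.2 CPM, where the highest was 3mTSCmKO replicate 4. In 9mCON+RM replicate 1 the neutrophil, lymphocyte and platelet sums were thus all within the range of the 37 libraries. The 13 endothelial markers, of the vessel wall, were within range in all 3 high libraries (818, 1104 and 1004 CPM against 599 to 1232 CPM), and the 10 macrophage markers were too (124.8, 95.8 and 35.6 CPM against 14.2 to 181.8 CPM). The embryonic globins Hba-x, Hbb-y and Hbb-bh1 had 4, 7 and 5 counts in all 40 libraries together.

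Lists of related genes gave the background for the members. Of 9 erythroid regulators and chaperones in the table, 2 passed the filter on low counts and 0 of them passed the test in any of the 12 comparisons between pairs of groups, in which 0.679 to 37.9% of all genes passed, with a median difference of 0.01 at 9 months between genotypes against −0.02 over all genes. Of the other globins, 2 were tested. Mb, the oxygen store of fibers, rose by 0.75 ± 0.20 on the log2 scale in 9mTSCmKO against 9mCON (adjusted p = 0.00234, edgeR) and fell by 0.64 ± 0.20 with rapamycin in 9mTSCmKO (0.0109). The 4 hemoglobin genes passed in neither comparison with edgeR, whereas DESeq2 called all 4 between genotypes (adjusted p = 0.0286 to 0.0394). Cygb, cytoglobin, fell by 0.62 ± 0.20 on the log2 scale with rapamycin in 9mCON (adjusted p = 0.0327, edgeR), and was at −0.49 ± 0.22 without the 3 high libraries (adjusted p = 0.186, edgeR).

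Of 12 genes of heme synthesis, all tested, 0 rose and 3 fell in 9mTSCmKO against 9mCON (median −0.06), where 37.9% of all genes passed in either direction, and 4 fell without the 3 high libraries. With all libraries these were the mitochondrial iron importer Slc25a37 (−0.68 ± 0.12), the porphyrin transporter Abcb6 (−0.53 ± 0.12) and ferrochelatase, Fech (−0.33 ± 0.12). Alas1, the form of the first enzyme in tissues other than red cells, fell by 0.98 ± 0.13 on the log2 scale with rapamycin in 9mTSCmKO (adjusted p = 5.40e-07, edgeR), where 2 genes of the list rose and 3 fell against 32.6% of all genes, and by 0.36 ± 0.13 in 3mTSCmKO. At 3 months 2 rose and 2 fell with genotype, against 19.8% of all genes, with changes of −0.42 to 0.38, and 1 rose and 1 fell without the 3 high libraries. Alas2, the erythroid form, passed in neither rapamycin comparison.

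Of 17 tested genes of heme and iron handling, 4 rose and 7 fell between genotypes at 9 months (median −0.14) and 4 rose and 2 fell at 3 months (median 0.06), against 37.9% and 19.8% of all genes. The iron exporter Slc40a1 rose at both ages, by 1.45 ± 0.18 at 9 months and 1.45 ± 0.18 at 3 months, and fell by 1.53 ± 0.18 with rapamycin in 9mTSCmKO and by 1.89 ± 0.18 in 3mTSCmKO. Heme oxygenase, Hmox1, which breaks down heme, rose by 1.38 ± 0.24 in 9mTSCmKO, whereas the heme exporter Flvcr1 fell by 1.82 ± 0.28 on the log2 scale. Haptoglobin, Hp, which binds free hemoglobin, fell by 2.21 ± 0.72 on that scale in the same comparison. The ferritin chains Fth1 and Ftl1 rose by 0.87 ± 0.17 and 0.90 ± 0.18 at 3 months. The transferrin receptor Tfrc, which imports iron, fell with rapamycin by 2.58 ± 0.25 on the log2 scale in 9mTSCmKO and by 1.96 ± 0.24 in 3mTSCmKO. It was lower in TSCmKO+RM than in CON+RM, with −2.44 ± 0.25 at 9 months and −2.36 ± 0.25 at 3 months. Tfrc is also expressed by erythroid precursors and by muscle fibers, and the source of its transcripts was not tested. The counts for the genotype effect were the same without the 3 high libraries, 4 and 7 at 9 months and 4 and 2 at 3 months.

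Of 9 tested genes of the red cell membrane and skeleton, 1 rose and 6 fell between genotypes at 9 months (median −0.56), against 37.9% of all genes, and the counts were the same without the 3 high libraries. The glucose transporter Slc2a1 rose (1.55 ± 0.16), while Ank1 (−0.67 ± 0.13), Sptb (−0.67 ± 0.24) and Tmod1 (−0.56 ± 0.13), of the spectrin skeleton, fell. Muscle fibers express such genes too. Sptb was at 351.9, 172.7 and 339.7 CPM in the 3 high libraries against a median of 453.6 CPM in the other 36, and Ank1 at 489.9, 718.7 and 852.9 CPM against 554.4 CPM. Their correlations with the mean of the globins over the 40 libraries were −0.410 and 0.251. Of 13 tested red cell enzymes and reticulocyte genes, 3 rose and 3 fell at 9 months (median 0.02), among them the carbonic anhydrase gene Car1 (3.12 ± 0.74), the peroxiredoxin gene Prdx2 (0.85 ± 0.17), Isg20 (−1.36 ± 0.53) and Bpgm, which makes the regulator of oxygen release 2,3-bisphosphoglycerate (−0.97 ± 0.17). Leaving out the high libraries, 4 rose and 2 fell, and Isg20 was then at −0.27 ± 0.35 (adjusted p = 0.581, edgeR) with 9mCON replicate 1, at 10.98 CPM, among those left out. At 3 months 0 genes of this list passed with all libraries and 1 without them, against 19.8% of all genes with all libraries. For comparison, 8 of 8 slow fiber markers rose at 9 months (7 without the 3 high libraries), 0 rose and 4 fell of 10 fast fiber markers (5 fell without), and 4 of 13 endothelial markers fell (3 without).

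Markers of other blood cells passed in some of these comparisons. At 9 months 1 of 5 tested neutrophil markers rose and 1 fell with genotype, 1 of 4 platelet markers rose, 1 of 4 lymphocyte markers rose and 1 of 9 macrophage markers rose, against 37.9% of all genes in either direction. At 3 months 3 of 5 neutrophil markers rose with genotype, led by S100a9 (4.29 ± 0.86, adjusted p = 0.000297, edgeR), together with 2 of 4 platelet and 2 of 4 lymphocyte markers, where 19.8% of all genes passed. Once the high libraries were left out, 2 neutrophil, 0 platelet and 0 lymphocyte markers rose at 3 months. S100a9 was at 20.2 CPM in 3mTSCmKO replicate 4 and at 3.24 CPM in replicate 3, the libraries in which Slc4a1 was high, and their part in its result was not tested. With rapamycin in 9mCON, 7 of 9 macrophage markers fell against 11.8% of all genes in either direction, as many as without the 3 high libraries, whereas members did not pass.

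The share of each copy in its pair was compared next, in tests added after the shares were seen. Hba-a2 made up 54.5 to 61.1% of alpha TPM and Hbb-bt 32.3 to 44.2% of beta TPM. The share of Hbb-bt was 39.9% ± 2.25 (SD, n = 20) at 9 months and 35.0% ± 1.74 at 3 months, a difference of 4.89 points, higher at 9 months in 4 of 4 strata of genotype and treatment (stratified permutation test, two-sided, p = 1e-05, the smallest the shuffles can give, adjusted p = 9e-05 over 18 tests). The ratio of alpha to beta TPM was 1.35 ± 0.15 at 9 months and 1.53 ± 0.17 at 3 months (adjusted p = 0.0115). TSCmKO and CON differed by −0.59 points in the share of Hbb-bt (adjusted p = 0.801) and rapamycin and vehicle by 0.40 points (0.884). Alas2 per 1000 TPM of globin was 5.999 ± 0.969 at 9 months and 5.922 ± 0.931 at 3 months (adjusted p = 0.988).

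The share of Hbb-bt followed the insert size of the library within each age. At 3 months r was 0.973 (rho 0.956, n = 20, permutation p = 1e-05 for both, the smallest the shuffles can give, adjusted p = 2e-05 over 12 relations) and 0.964 without the 2 farthest libraries. At 9 months r was 0.960 (rho 0.892, n = 19, permutation adjusted p = 2e-05) and 0.913 without the 2 farthest. The slopes were 0.83 and 0.93 points per 10 nt. With insert size as a term, the difference between ages in the share of Hbb-bt was −0.86 ± 0.32 points (SE, n = 39), opposite in sign. The difference in the alpha to beta ratio was then −0.00054 ± 0.094, and that in Alas2 per 1000 TPM of globin −1.44 ± 0.51 against 0.107 without the term in the same 39 libraries. For Hba-a2 the relation was r = 0.935 at 3 months (rho 0.950, permutation adjusted p = 2e-05), and −0.447 at 9 months (permutation adjusted p = 0.0634, rho −0.531 with adjusted p = 0.0285). The 9-month value rested on the 2 farthest libraries, since r was −0.130 without them. Alas2 per 1000 TPM of globin also rose with insert size, with r = 0.522 at 3 months (rho 0.543, permutation adjusted p = 0.0281 and 0.0222) and 0.504 at 9 months (rho 0.433, permutation adjusted p = 0.0339 and 0.0731). Age and insert size cannot be told apart in this design beyond that term.

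**Figure D5:**
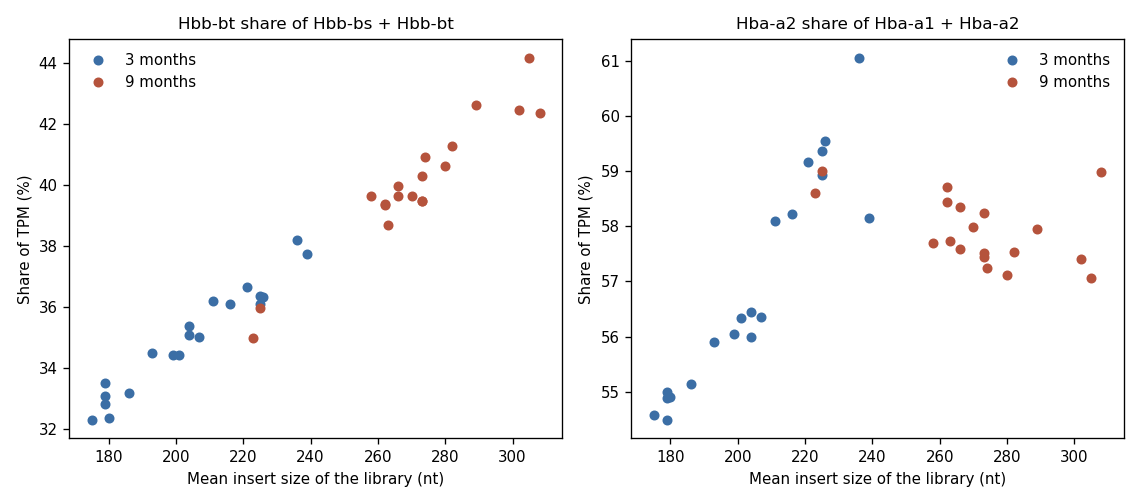
Share of Hbb-bt in the TPM of both beta globins (left) and of Hba-a2 in that of both alpha globins (right), in percent, against the mean insert size of each library in nt, for 20 libraries at 3 months and 19 at 9 months. The share of Hbb-bt rises with insert size at both ages (r = 0.973 and 0.960), while that of Hba-a2 climbs at 3 months only (r = 0.935, and −0.447 at 9 months).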

How the data were processed

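The authors isolated poly(A) RNA from whole EDL muscle, sequenced it single-end with strand kept, removed adapters using Cutadapt 1.9.1 and assigned reads with kallisto 0.43.1 to Ensembl transcripts of GRCm38, versions as listed in the submitters' processing notes. A read matching several transcripts was divided equally among them, so that copies of a globin pair exchange counts. The deposited tables hold estimated counts per gene and the TPM that the authors derived from them. All 40 libraries were used, and 0 value columns lacked a label.

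Counts were rounded and tested in R 4.3.3 with edgeR 4.0.16 (TMM, robust quasi-likelihood F-test, 8 group means, two-sided, Benjamini-Hochberg over 13543 genes with at least 1 CPM in 5 libraries, threshold 0.05) in 20 contrasts. Standard errors came from the F-statistics. Replicates were separate mice. DESeq2 1.42.0, other scalings, no filter, a replicate block, an insert size term and left-out libraries were alternatives. Ratios were tested by permutation within strata, added after their values were seen, as were the fits without the high libraries. Scripts were tested on simulated data. Named genes were the members, Tsc1, at most 4 passing genes per list and comparison by size, and the 10 genes most like the globins. A few genes that this rule or the lists hold are not reported here. The members and the 13 lists were chosen with earlier results of these data known. Sequences are from RefSeq (GRCm38.p6) and coding sequences from GENCODE M21. Total counts of 8883870 to 35224669 per library bound the precision of low genes such as Slc4a1. Floors for 0 counts cover counting error only, whereas the SE of fold changes and the SD also include variation between libraries.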

Additional observations from a re-analysis of the deposited data

Results flagged for a closer look

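In groups of 5 libraries, Dixon's test for a single extreme value (critical value 0.71, which chance passes in about 1 of 20 groups) marked 22 of the 48 combinations of member and group, in 5 libraries. In 3mTSCmKO replicate 3 these were Hba-a1 (7786 TPM), Hba-a2 (9474 TPM), Hbb-bs (7599 TPM), Hbb-bt (3710 TPM) and Alas2 (162.5 TPM). In 9mCON replicate 1 they were Hba-a1 (5278 TPM), Hba-a2 (7030 TPM), Hbb-bs (5175 TPM), Hbb-bt (3539 TPM), Alas2 (99.7 TPM) and Slc4a1 (2.94 TPM). In 9mCON+RM replicate 1 they were Hba-a1 (1662 TPM), Hba-a2 (2269 TPM), Hbb-bs (1678 TPM), Hbb-bt (1058 TPM), Alas2 (48.8 TPM) and Slc4a1 (0.619 TPM). In 3mTSCmKO+RM replicate 2 they were Hba-a1 (1426 TPM), Hba-a2 (1752 TPM), Hbb-bs (1238 TPM) and Slc4a1 (0.766 TPM), and in 3mCON+RM replicate 5 Alas2 (17.6 TPM). The members vary together, so that these marks are not independent of each other.

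The genotype difference differed between ages in the test of the difference itself (edgeR) for Hbb-bs (−3.89 on the log2 scale), Hbb-bt (−3.80) and Slc4a1 (−5.24). Without the 3 high libraries 0 of these passed.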

How the results depend on the processing

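Counts of members past the threshold moved as follows. Without the 3 high libraries, 4589 of 13543 genes passed for age in TSCmKO and 6314 for average age. In the interaction of genotype and age 870 did. Apart from DESeq2, counts over all genes in the other alternatives are not given here. The genotype effect at 9 months gave 0 with all libraries, 2 with upper-quartile scaling and 4 with DESeq2, and 0 to 5 with 1 library left out (5 without 9mCON replicate 4 or 5 or 9mTSCmKO replicate 3). At 3 months it gave 1, 3 with DESeq2, 0 with only the groups compared, and 0 to 1 with 1 left out (0 without 3mTSCmKO replicate 4). The rapamycin effect in 3mTSCmKO gave 1, 0 with only the groups compared and 0 to 1 with 1 left out (0 without 3mTSCmKO replicate 3 or 4 or 3mTSCmKO+RM replicate 3 or 5), and in 9mCON 0 and 0 to 2 (2 without 9mCON+RM replicate 1). The age effect in TSCmKO gave 5, 6 with DESeq2, 3 with no filter, 1 each with only the groups compared, with an insert size term and without the 3 high libraries, and 1 to 6 with 1 left out (1 without 3mTSCmKO replicate 3 or 9mTSCmKO replicate 1, 4 or 5, and 6 without 3mTSCmKO replicate 5 or 9mTSCmKO replicate 3). The average rapamycin effect gave 0, 1 with DESeq2 and 0 to 6, and the average age effect 0, and 1 without the 3 high libraries. The interaction of genotype and age gave 3, 6 with DESeq2, 1 with no filter, 1 with an insert size term, 0 with only the groups compared, 0 without the 3 high libraries, and 0 to 6 with 1 left out (6 without 3mTSCmKO replicate 1 or 4, 9mCON replicate 4 or 9mTSCmKO replicate 3). The other 12 comparisons gave 0 throughout, with 0 to 0. Scaling by DESeq2 size factors and leaving the globins out of library sizes changed the direction or call of none of 120 fold changes. On the log2 TPM scale and within each age all 15 correlations between members kept their sign. With TMM-scaled CPM, 3 to 6 of 8 groups kept their place in the order of medians.

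With the replicate number as a block, the interaction of genotype and age gave 1 member, the age effect in TSCmKO 4, and 103 of 120 fold changes kept their call and direction. Equal numbers did not pair the libraries (r over 0.1 in 15 of 60 pairs, −0.327 to 0.347), and in 27 of 120 cases a library correlated best with its own number.

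The difference between ages in the share of Hbb-bt reversed with insert size as a term (from 5.07 to −0.862 points in the 39 libraries with an insert size). That in the share of Hba-a2 moved from 0.994 to −1.41 points, that in Alas2 per 1000 TPM of globin from 0.107 to −1.44, and that in the alpha to beta ratio from −0.184 to −0.00054. Depth limits Slc4a1, with a median of 7.5 counts.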
